A study of Caenorhabditis elegans with 8 samples.

Results

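The genes described here encode short-chain dehydrogenases and flavin-containing monooxygenases of Caenorhabditis elegans. The set was chosen with earlier results of these data known. Its members were defined by name, as every gene whose symbol in the WBcel235 annotation starts with dhs-, stdh- or fmo-. This gave 39 genes of the 46726 in each deposited table, with 30 dhs genes, 4 stdh genes and 5 fmo genes, and all 39 are annotated as protein-coding. Of these, 36 passed the low-count filter and were tested. The other 3, stdh-2, stdh-3 and stdh-4, had 0 to 7 reads in every library.

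The 4 groups were hizr-1 mutant cultures with cadmium chloride, hizr-1 mutant cultures without it, wild-type N2 cultures with cadmium chloride and wild-type N2 cultures without it, each with 2 libraries. The mutant is an N2 derivative carrying the loss-of-function allele am286 of hizr-1, which encodes a nuclear receptor that binds zinc and activates genes of zinc homeostasis. The question of the design is which transcripts differ with cadmium and whether that depends on hizr-1. All cultures were mixed-stage whole animals fed E. coli OP50, grown for 4 days and then kept for 16 to 18 h at 20 °C on noble agar minimal medium with 0 or 100 mM cadmium chloride, the unit the labels give. Each library pooled the animals of 10 plates and 1 allele stands for the mutant, so the p-values measure the spread between pools of parallel plates. In such whole-animal RNA, fewer cells of a type and less RNA per cell cannot be told apart.

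Short-chain dehydrogenases are NAD- or NADP-dependent enzymes that oxidise alcohols or reduce carbonyl groups on steroids, retinoids, fatty acyl chains, sugars and foreign compounds. Flavin-containing monooxygenases use NADPH and oxygen to oxidise nitrogen and sulfur atoms of foreign compounds and of some metabolites. In C. elegans fmo-2 is known as a gene induced by hypoxia and fasting that promotes longevity, and fmo-4 is known for a role in osmoregulation. Among the dehydrogenases, DHS-3 is a protein of intestinal lipid droplets, DHS-28 acts in peroxisomal beta-oxidation, DHS-16 takes part in the synthesis of the steroid hormone dafachronic acid, DHS-21 is a dicarbonyl and L-xylulose reductase, and STDH-1 resembles the mammalian steroid and fatty acyl dehydrogenase HSD17B12.

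Total counts ran from 17681352 to 29586507 per library. By these totals, without TMM scaling, 3 counts, the limit that a count of 0 allows, were 0.101 to 0.170 CPM. The targeted gene hizr-1 had 20 and 18 counts in mutant libraries with cadmium and 18 and 7 in mutant libraries without it, against 101 and 77 in wild-type libraries with cadmium and 57 and 52 in those without. Every library held reads of all the listed markers of sperm (11 genes), oocytes (9), intestine (8), hypodermis (6), muscle (5) and neurons (6). The summed level of the sperm markers ran from 75.2 to 87.4 CPM in mutant libraries with cadmium and from 58.1 to 106 CPM in mutant libraries without it. It ran from 7.24 to 19.3 CPM in wild-type libraries with cadmium and from 20.5 to 66.4 CPM in wild-type libraries without it. The muscle markers summed to 2396 and 3760 CPM in mutant libraries with cadmium, 2938 and 3072 CPM in mutant libraries without it, 4372 and 2347 CPM in wild-type libraries with cadmium and 4620 and 3339 CPM in wild-type libraries without it. The part of such differences in the values below was not tested.

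No gene of the set passed the test (edgeR's quasi-likelihood F test, Benjamini-Hochberg adjusted p under 0.05 over 15818 genes) in any of the 5 comparisons. The summed level of the 39 genes, per kilobase of exon and with TMM-scaled library sizes, was 938 ± 37.5 RPKM in the mutant with cadmium, 942 ± 29.4 RPKM in the mutant without cadmium, 975 ± 4.88 RPKM in the wild type with cadmium and 944 ± 41.3 RPKM in the wild type without cadmium (SD, n = 2 each). Most of the sum came from a few genes. The 5 highest genes of a library held 49.9 to 55.9% of it, and dhs-25, dhs-22, dhs-12 and dhs-28 were among those 5 in every library.

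Levels differed widely between genes. Of the 36 tested genes, 13 had a mean above 20 RPKM over the 8 libraries, 11 lay between 5 and 20 RPKM and 12 lay below 5 RPKM. Their median sat at the 57.8th percentile of mean RPKM among all 15818 genes tested. The highest was dhs-25 (WBGene00000988, chromosome X, 1486502 to 1489329, + strand, 5 exon blocks), with 134 to 204 RPKM. Next came dhs-22 with 92.0 to 115.7 RPKM, dhs-12 with 78.7 to 107 RPKM and dhs-28 with 78.2 to 112.5 RPKM, and the ranges of these 3 overlap. The lowest tested genes were dhs-16, with 0.611 to 1.91 RPKM, and dhs-26, with 0.336 to 1.59 RPKM.

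**Figure D1:**
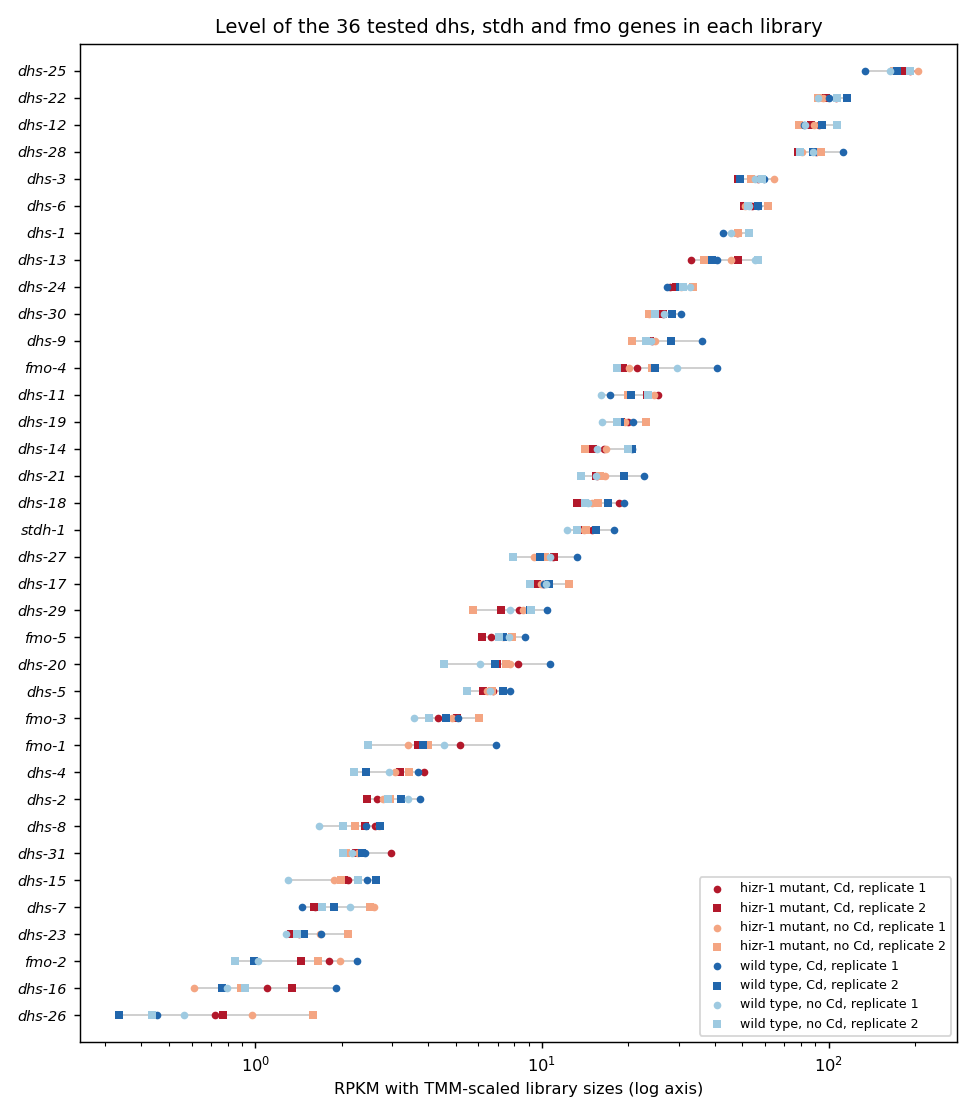
Level of each of the 36 tested genes in each of the 8 libraries, as RPKM with TMM-scaled library sizes on a log axis, with colour for the group and shape for the replicate. The genes spread from dhs-26 at 0.336 RPKM to dhs-25 at 204 RPKM, while the 8 libraries of a gene differ by at most 4.74-fold.

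Within a gene, levels moved less between libraries than they differed between genes. The highest library exceeded the lowest by less than 1.5-fold for 16 of the 36 genes, by more than 1.5-fold for 20 and by more than 2-fold for 7. The steadiest was dhs-6 (1.22-fold, 73.4 to 89.4 CPM), and the least steady was dhs-26 (4.74-fold, 0.403 to 1.91 CPM). Of the other genes above 2-fold, 3 were flavin monooxygenase genes: fmo-1 (2.80-fold), fmo-2 (2.66-fold) and fmo-4 (2.23-fold).

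The set is spread over all 6 chromosomes, with 18 of the 39 genes on chromosome V, 6 on X, 4 each on I, II and IV, and 3 on III. On chromosome V, stdh-3 (13904611 to 13905996) and stdh-1 (13906490 to 13908037) lie on the + strand with 493 bases between them. Despite that, stdh-1 had 264 to 530 reads per library and stdh-3 had 0 to 6. How reads that match more than 1 gene copy were counted is not given in the sources used here, so a low count of a stdh gene could also reflect such reads. Exon blocks of 14 of the genes overlap those of another gene, in 14 of 15 cases on the other strand, over 0.1 to 16.7% of the exon length. As no strand setting is given, reads in these stretches cannot be told apart.

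The flavin monooxygenase genes ranked in level from fmo-4 through fmo-5, fmo-3 and fmo-1 to fmo-2. The family's summed level was 37.5 ± 2.81 RPKM in the mutant with cadmium, 40.7 ± 4.23 RPKM in the mutant without cadmium, 52.7 ± 15.8 RPKM in the wild type with cadmium and 39.5 ± 9.57 RPKM in the wild type without cadmium. The gene fmo-4 alone made up 53.4 to 63.9% of that sum. The wild-type means carried a large SD, because replicate 1 lay above replicate 2 in both wild-type groups.

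The gene fmo-4 (WBGene00001479, chromosome V, 13603295 to 13606701, - strand) had 43.0 and 38.2 CPM in mutant libraries with cadmium and 40.4 and 48.3 CPM in mutant libraries without cadmium. It had 81.7 and 49.6 CPM in wild-type libraries with cadmium and 59.0 and 36.7 CPM in wild-type libraries without cadmium. Both mutant libraries with cadmium thus lay below both wild-type libraries with cadmium, and the groups of the other 3 comparisons overlapped. With cadmium the log2 fold change of mutant over wild type was -0.69 ± 0.28 (SE; unadjusted p = 0.0353, adjusted p = 0.354), which did not pass. It was the one result of the set that passed under any alternative. The adjusted p for fmo-4 was 0.00133 with no low-count filter, 0.049 when replicate 1 of the untreated wild type was left out and 0.046 when its replicate 2 was left out, and over all alternatives it ran from 0.00133 to 0.995. Without wild-type replicate 1 with cadmium the change was -0.29 (adjusted p = 0.995). With cadmium in the wild type, fmo-4 had a log2 fold change of 0.46 ± 0.28 (adjusted p = 0.565). Without wild-type replicate 1 or 2 with cadmium this value for fmo-4 was 0.05 or 0.77, and without untreated wild-type replicate 1 or 2 it was 0.84 or 0.15.

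The gene fmo-2 (WBGene00001477, chromosome IV, 10682524 to 10684385, + strand) was at the low end of the set. It had 3.02 and 2.42 CPM in mutant libraries with cadmium and 3.32 and 2.79 CPM in mutant libraries without it, against 3.79 and 1.66 CPM in wild-type libraries with cadmium and 1.71 and 1.42 CPM in those without. Without cadmium both mutant libraries lay above both wild-type libraries, with a log2 fold change for fmo-2 of 0.96 ± 0.37 (95% interval 0.14 to 1.77; unadjusted p = 0.0247, adjusted p = 0.368). With cadmium in the wild type the log2 fold change of fmo-2 was the highest of the set, 0.81 ± 0.37 (adjusted p = 0.436). For fmo-2 it was 0.07 without wild-type replicate 1 with cadmium and 1.26 without replicate 2.

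The neighbouring gene fmo-1 (WBGene00001476, chromosome IV, 10661857 to 10664404, + strand), 18119 bases from fmo-2, had 10.5 and 7.53 CPM in mutant libraries with cadmium and 6.91 and 8.14 CPM in mutant libraries without it. In the wild type it had 14.1 and 7.84 CPM with cadmium and 9.27 and 5.03 CPM without, so that the groups overlapped. The log2 fold change of fmo-1 with cadmium in the wild type was 0.61 ± 0.35 (adjusted p = 0.539). For fmo-1 it was 0.13 or 0.96 without wild-type replicate 1 or 2 with cadmium, and 1.13 or 0.25 without untreated wild-type replicate 1 or 2.

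The gene fmo-3 (WBGene00001478, chromosome III, 10694647 to 10698868, + strand) had 7.23 and 8.40 CPM in mutant libraries with cadmium, 8.09 and 10.1 CPM in mutant libraries without it, 8.51 and 7.70 CPM in wild-type libraries with cadmium and 5.95 and 6.74 CPM in wild-type libraries without it. Its lowest 2 libraries were those of the untreated wild type. The log2 fold change of fmo-3 in mutant over wild type without cadmium was 0.51 ± 0.22 (unadjusted p = 0.036, adjusted p = 0.412). The gene fmo-5 (WBGene00001480, chromosome V, 899312 to 903579, - strand) varied least in the family, from 10.2 to 14.5 CPM, and its log2 fold changes lay between -0.33 for mutant over wild type with cadmium and 0.13 for cadmium in the wild type.

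**Figure D2:**
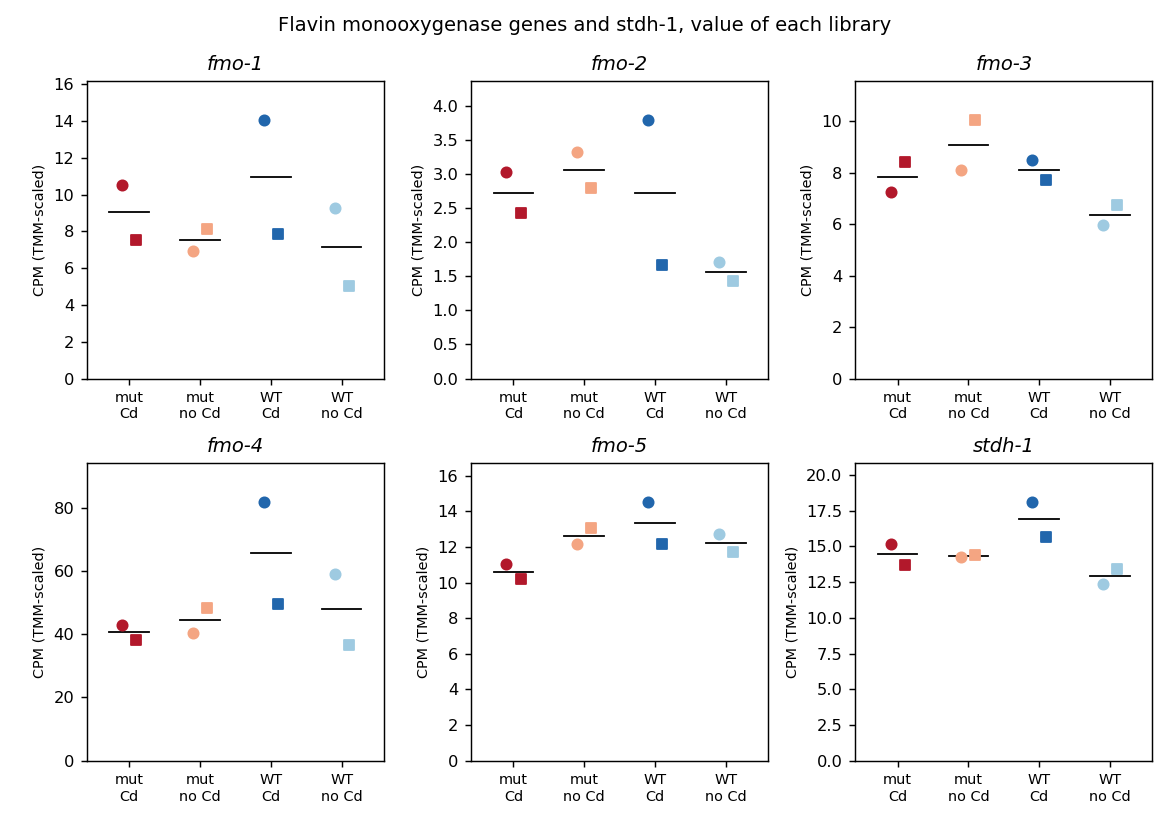
CPM with TMM-scaled library sizes of the 5 fmo genes and stdh-1 in each library, with circles for replicate 1, squares for replicate 2 and a line at the mean of the 2 libraries; mut is the hizr-1 mutant and WT the wild type. Wild-type replicate 1 with cadmium is the highest library for fmo-1, fmo-2, fmo-4, fmo-5 and stdh-1, with 81.7 CPM against 49.6 CPM in replicate 2 for fmo-4.

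The one gene of its family that passed the low-count filter, stdh-1 (WBGene00007363), had 15.2 and 13.7 CPM in mutant libraries with cadmium and 14.2 and 14.4 CPM in mutant libraries without it. In the wild type it had 18.1 and 15.7 CPM with cadmium, against 12.4 and 13.4 CPM without. The wild-type groups did not overlap, and the log2 fold change of stdh-1 with cadmium was 0.39 ± 0.19 (95% interval -0.01 to 0.79; adjusted p = 0.443). In the mutant the log2 fold change was 0.02 ± 0.19.

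Of the dehydrogenases with a known role, dhs-28 and dhs-3 were among the abundant genes. The peroxisomal gene dhs-28 (WBGene00000991, chromosome X, 6818438 to 6820073, + strand) had 126.6 and 109.6 CPM in mutant libraries with cadmium, 113 and 131.5 CPM in mutant libraries without it, 157.7 and 124.1 CPM in wild-type libraries with cadmium and 124.1 and 111.5 CPM in wild-type libraries without it. Its log2 fold change with cadmium was -0.05 ± 0.16 in the mutant and 0.26 ± 0.16 in the wild type. The lipid droplet gene dhs-3 (WBGene00000967, chromosome I, 8212362 to 8218361, - strand) had 56.0 to 75.3 CPM over the 8 libraries. Its 4 log2 fold changes between groups lay between -0.18 for cadmium in the mutant and 0.06 for mutant over wild type without cadmium, with 95% intervals inside -0.52 to 0.40. The gene dhs-19, whose product is also known from lipid droplets, had 17.5 to 24.9 CPM, and its largest change was 0.30 ± 0.18 for mutant over wild type without cadmium (adjusted p = 0.619).

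Of the other abundant genes, dhs-25 had 195.7 and 184.5 CPM in mutant libraries with cadmium, 208 and 172.6 CPM in mutant libraries without it, 136.9 and 176.1 CPM in wild-type libraries with cadmium and 167.2 and 195.9 CPM in wild-type libraries without it. Wild-type replicate 1 with cadmium was the lowest of the 8, and with cadmium both mutant libraries were above both wild-type libraries. The log2 fold change of dhs-25 for mutant over wild type with cadmium was 0.28 ± 0.16 (adjusted p = 0.708). For dhs-22 (107.9 to 135.8 CPM) the 4 log2 fold changes between groups lay between -0.09 for mutant over wild type without cadmium and 0.12 for cadmium in either genotype. For dhs-12 (66.0 to 89.8 CPM) they lay between -0.18 for mutant over wild type without cadmium and 0.09 for cadmium in the mutant.

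The dafachronic acid gene dhs-16 (WBGene00000979, chromosome V, 5983745 to 5985511, + strand) was measured from 21 to 75 reads per library. It had 1.48 and 1.80 CPM in mutant libraries with cadmium and 0.820 and 1.202 CPM in mutant libraries without it, against 2.56 and 1.03 CPM in wild-type libraries with cadmium and 1.07 and 1.23 CPM in those without. Its log2 fold change with cadmium was 0.71 ± 0.44 in the mutant (95% interval -0.25 to 1.67) and 0.67 ± 0.42 in the wild type (95% interval -0.24 to 1.59), and neither passed. For dhs-16 the wild-type value was -0.15 or 1.154 without wild-type replicate 1 or 2 with cadmium, and the mutant value was 0.44 without untreated mutant replicate 1.

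Between mutant cultures with and without cadmium the genes of the set differed in both directions and by small amounts. The median log2 fold change of the 36 genes was -0.003, with a range from -0.76 to 0.71, and the median over all 15818 genes was 0.002. By edgeR's quasi-likelihood test 0 of 36 passed, where 0.0316% of all genes tested did. DESeq2 and limma-voom also called 0, where 0.0695% and 0.00632% of all genes passed. At an unadjusted p under 0.05 there was 1 gene by edgeR, where 1.78% of all genes met that mark. DESeq2 gave 0 and limma-voom 1 at that mark, with no share of all genes computed for either. The libraries of the 2 mutant groups did not overlap for 12 genes, where 31.5% of all genes did not overlap. Of these, 5 were higher with cadmium, where 16.7% of all genes were, and 7 were lower, where 14.9% were. The change was above 0 for 16 of the 36 genes, which held for 50.4% of all genes. For 31 of the 36 genes the 95% interval lay within a log2 fold change of 1 in either direction.

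The gene with the smallest p in the mutant was dhs-7 (WBGene00000971, chromosome II, 7206990 to 7208379, - strand). It had 1.96 CPM in both mutant libraries with cadmium, against 3.16 and 3.06 CPM in those without, and 1.78 and 2.28 CPM in wild-type libraries with cadmium against 2.60 and 2.09 CPM in those without. In the mutant this was a log2 fold change for dhs-7 of -0.67 ± 0.28 (unadjusted p = 0.0347, adjusted p = 1). Next in order came dhs-26 at -0.76 ± 0.39, dhs-16 at 0.71 ± 0.44 and dhs-23 at -0.45 ± 0.30. The gene dhs-23 had 1.54 and 1.44 CPM in mutant libraries with cadmium, against 1.84 and 2.29 CPM in those without, from 28 to 54 reads in any library. The last of the first 6 were fmo-5 at -0.25 ± 0.19 and dhs-24 at -0.16 ± 0.14. The gene dhs-24 had 51.8 and 54.5 CPM in mutant libraries with cadmium, against 56.6 and 62.5 CPM in those without.

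With cadmium in the wild type, more of the genes lay above their level without cadmium than below it, by amounts that did not pass the test. The median log2 fold change of the 36 genes was 0.22, with a range from -0.49 to 0.81, and the median of all genes was -0.01. For 27 of the 36 genes the change was above 0, which held for 48.7% of all genes. DESeq2 and limma-voom called 0 of 36, where 1.36% and 0.266% of all genes passed. By edgeR 0 of 36 also passed, where 0.284% of all genes did. With each library left out in turn, that share of all genes ran from 0.105% without wild-type replicate 1 with cadmium to 2.6% without untreated wild-type replicate 1. At an unadjusted p under 0.05 DESeq2 gave 4 genes and limma-voom 5, with no share of all genes computed for either. At that mark edgeR gave 4 genes, where 11.5% of all genes met it. By edgeR 3 of them were higher, where 4.72% of all genes were, and 1 was lower, where 6.76% were. The wild-type libraries did not overlap for 18 genes, where 39.6% of all genes did not. Of these, 16 were higher with cadmium, where 18.3% of all genes were, and 2 were lower, where 21.3% were. The median was 0.11 without wild-type replicate 1 with cadmium. In the same comparison 0 of 9 oocyte markers and 0 of 10 tested sperm markers were above 0 (medians -0.28 and -1.65), and 5 of 6 neuron markers and 5 of 8 intestine markers were (medians 0.29 and 0.14). Hypodermis and muscle markers were above 0 for 3 of 6 and 2 of 5 (medians -0.08 and -0.03), and the part of these markers in the genes' values was not tested.

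The 3 genes with an upward change at an unadjusted p under 0.05 were dhs-20, dhs-21 and dhs-9. The gene dhs-20 (WBGene00000983, chromosome V, 11602312 to 11604563, - strand) had 15.3 and 9.85 CPM in wild-type libraries with cadmium, against 8.73 and 6.55 CPM in those without, and 11.9 and 10.0 CPM in mutant libraries with cadmium, against 11.1 and 10.8 CPM in those without. Its log2 fold change in the wild type was 0.72 ± 0.25 (unadjusted p = 0.0129, adjusted p = 0.332), or 0.36 without wild-type replicate 1 with cadmium. Its exons share 80 bases with those of idpp-16 on the same strand and 49 bases with those of F35B12.9 on the other.

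The reductase gene dhs-21 (WBGene00000984, chromosome V, 12731772 to 12733627, - strand) had 20.1 and 17.0 CPM in wild-type libraries with cadmium, against 13.6 and 12.1 CPM in those without. In the mutant it had 13.7 CPM in both libraries with cadmium, against 14.7 and 14.1 CPM in those without. The 2 wild-type libraries with cadmium were thus above the other 6. The log2 fold change of dhs-21 with cadmium in the wild type was 0.53 ± 0.19 (95% interval 0.13 to 0.93; unadjusted p = 0.0143, adjusted p = 0.332). It ran from 0.41 to 0.64 over the alternatives.

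The gene dhs-9 (WBGene00000973, chromosome III, 5364512 to 5368045, - strand) had the same order, with 37.3 and 29.2 CPM in wild-type libraries with cadmium, against 24.8 and 23.8 CPM in those without. Mutant libraries had 25.0 and 24.6 CPM with cadmium, against 25.7 and 21.3 CPM without. In the wild type dhs-9 had a log2 fold change of 0.45 ± 0.18 (unadjusted p = 0.027, adjusted p = 0.377), or 0.27 without wild-type replicate 1 with cadmium. In the other direction, dhs-13 (WBGene00000976, chromosome V, 1765319 to 1771727, - strand) had 52.7 and 50.8 CPM in wild-type libraries with cadmium, against 71.4 and 73.6 CPM in those without. In the mutant it had 42.8 and 62.2 CPM with cadmium, against 58.8 and 47.6 CPM without, so that the 2 untreated wild-type libraries were above the other 6. With cadmium in the wild type dhs-13 had a log2 fold change of -0.49 ± 0.18 (unadjusted p = 0.0201, adjusted p = 0.356).

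**Figure D3:**
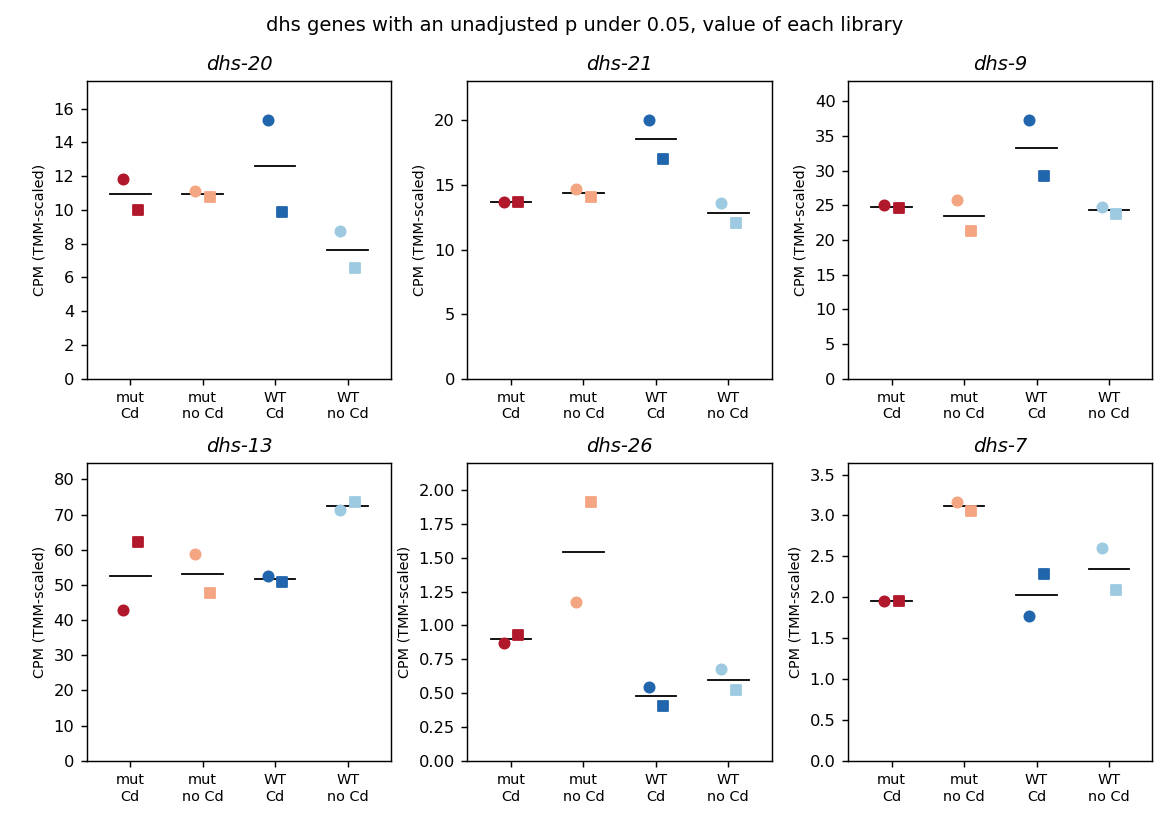
CPM with TMM-scaled library sizes of the 6 dhs genes that had an unadjusted p under 0.05 in at least 1 comparison, with circles for replicate 1, squares for replicate 2 and a line at the mean of the 2 libraries; mut is the hizr-1 mutant and WT the wild type. For dhs-21 both wild-type libraries with cadmium (20.1 and 17.0 CPM) lie above all others, and for dhs-13 both wild-type libraries without cadmium (71.4 and 73.6 CPM) do.

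Between genotypes with cadmium, more of the genes were lower in the mutant than higher, again without passing. This comparison uses the same wild-type libraries with cadmium as the one above. The median log2 fold change of mutant over wild type was -0.10, with a range from -0.69 to 0.89, and 8 of the 36 genes were above 0, where 48.3% of all genes were. The median was -0.16 without mutant replicate 1 with cadmium and -0.23 without wild-type replicate 2 with cadmium. DESeq2 and limma-voom called 0 of 36, where 4.79% and 4.34% of all genes passed. By edgeR 0 of 36 also passed, where 4.26% of all genes did. That share of all genes was 0.149% without wild-type replicate 1 with cadmium, 0.852% and 1.2% without mutant replicates 1 and 2 with cadmium, and 6.42% and 6.39% without untreated wild-type replicates 1 and 2. By edgeR 11.2% of all genes had an unadjusted p under 0.05, and 2.55% of all genes had such a p and were lower. No such share was computed for DESeq2 or limma-voom. At that mark there were 3 genes of the set, all lower in the mutant, by each of edgeR, DESeq2 and limma-voom. These were dhs-21 at -0.44 ± 0.19 (adjusted p = 0.352), fmo-4 at -0.69 ± 0.28 and dhs-9 at -0.42 ± 0.18 (adjusted p = 0.361), which for dhs-9 was -0.24 without wild-type replicate 1 with cadmium. The libraries did not overlap for 17 genes, where 36.5% of all genes did not overlap. Of these, 3 were higher in the mutant, where 20.8% of all genes were, and 14 were lower, where 15.7% were. After these 3, the smallest p-values belonged to dhs-26 at 0.89 ± 0.43, dhs-2 at -0.45 ± 0.22 and dhs-14 at -0.39 ± 0.20. With cadmium dhs-2 had 5.17 and 4.74 CPM in the mutant, against 7.28 and 6.27 CPM in the wild type, and dhs-14 had 15.2 and 13.9 CPM in the mutant, against 19.1 CPM in both wild-type libraries.

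Without cadmium, 25 of the 36 genes were higher in the mutant than in the wild type, where 47.6% of all genes were, and none passed. The untreated wild-type libraries used here are also those of the comparison of cadmium in the wild type, so the 2 results are not independent. The median log2 fold change of mutant over wild type was 0.07, or 0.13 without untreated mutant replicate 1, and the median of all genes was -0.02. DESeq2 and limma-voom called 0 of 36, where 0.613% and 0.12% of all genes passed. By edgeR 0 of 36 also passed, where 0.126% of all genes did. With each library left out in turn, that share of all genes ran from 0.0558% without wild-type replicate 1 with cadmium to 2.71% without untreated wild-type replicate 2. At an unadjusted p under 0.05 DESeq2 gave 3 genes and limma-voom 4, with no share of all genes computed for either. At that mark edgeR gave 4 genes, where 10.8% of all genes met it. By edgeR 3 of them were higher in the mutant, where 7.2% of all genes were, and 1 was lower, where 3.58% were. The libraries did not overlap for 14 genes, where 38.5% of all genes did not. Of these, 12 were higher in the mutant, where 19.3% of all genes were, and 2 were lower, where 19.2% were.

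The gene furthest from its wild-type level was dhs-26 (WBGene00000989, chromosome X, 3360685 to 3362493, - strand), with 1.17 and 1.91 CPM in mutant libraries without cadmium, against 0.677 and 0.522 CPM in wild-type libraries without it. With cadmium dhs-26 had 0.867 and 0.928 CPM in the mutant, against 0.546 and 0.403 CPM in the wild type, so that all 4 mutant libraries were above all 4 wild-type libraries. These values rest on 9 to 35 reads per library. The log2 fold change of dhs-26 was 1.32 ± 0.41 without cadmium (95% interval 0.44 to 2.20; unadjusted p = 0.00672, adjusted p = 0.241). It was the one change of the set beyond a log2 fold change of 1, and over the alternatives it ran from 0.97 to 1.65. The other genes at an unadjusted p under 0.05 were fmo-2 and fmo-3, described above, and dhs-13 at -0.45 ± 0.18 (adjusted p = 0.397), which for dhs-13 was -0.27 without untreated mutant replicate 2. After them came dhs-20 at 0.52 ± 0.25 and dhs-19, which had 21.1 and 24.9 CPM in mutant libraries without cadmium, against 17.5 and 19.9 CPM in wild-type libraries without it.

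**Figure D4:**
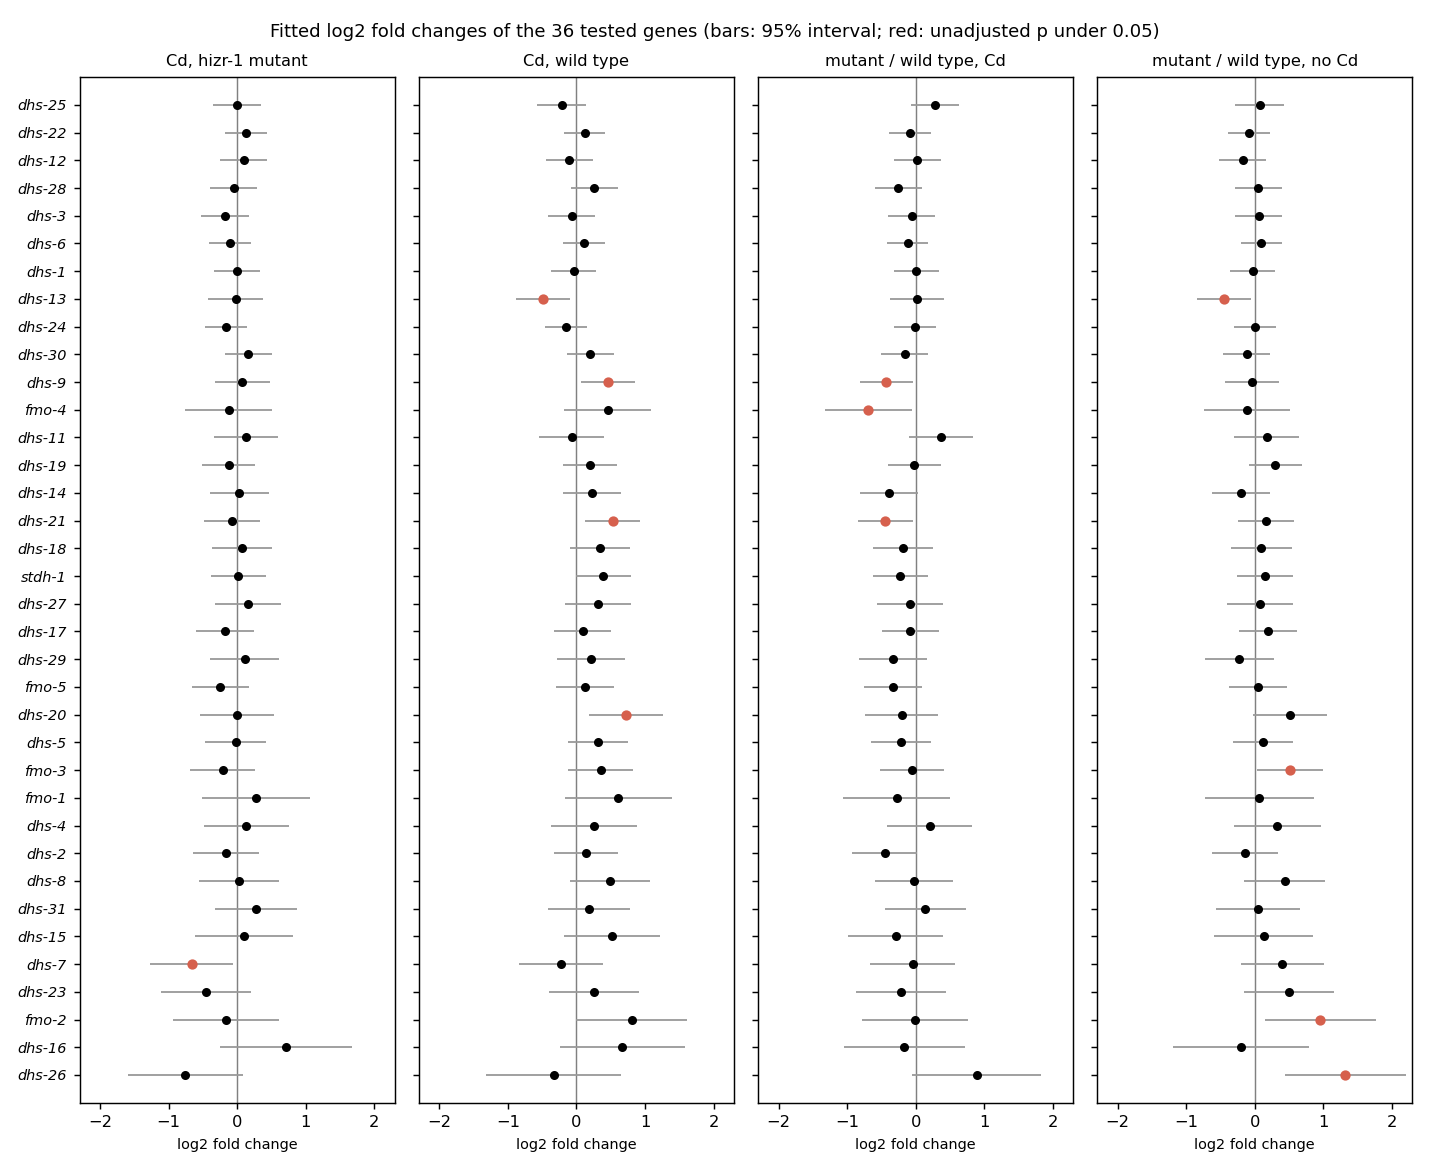
Fitted log2 fold changes of the 36 tested genes in the 4 comparisons between groups, in order of mean RPKM from the top, with bars for the 95% interval and red points where the unadjusted p was under 0.05. Points lie near 0 in the panel for cadmium in the mutant (median -0.003) and mostly right of 0 in that for cadmium in the wild type (median 0.22), and intervals widen towards the genes with few reads at the bottom.

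The difference between the cadmium responses, mutant minus wild type, was tested directly as an interaction. In edgeR, DESeq2 and limma-voom 0 of the 36 genes passed, where 0.114%, 0.177% and 0.101% of all genes did, in that order. By edgeR 3.24% of all genes had an unadjusted p under 0.05, and no such share was computed for DESeq2 or limma-voom. At that mark there was 1 gene of the set by each of the 3 tools. This was dhs-21, with a difference of -0.60 ± 0.26 (95% interval -1.18 to -0.03; unadjusted p = 0.0402, adjusted p = 1). Over the 36 genes the median difference was -0.29, against 0.03 for all genes, and 8 of 36 lay above 0, where 54.9% of all genes did. These values use the same libraries as the 2 cadmium comparisons above, so the results are not independent. The median difference was -0.18 without wild-type replicate 1 with cadmium and -0.19 without mutant replicate 2 with cadmium. The next smallest p-values belonged to dhs-20 at -0.72 ± 0.35, fmo-2 at -0.97 ± 0.52, fmo-3 at -0.57 ± 0.31, dhs-13 at 0.46 ± 0.26 and dhs-23 at -0.71 ± 0.43. The 95% interval of the difference lay within a log2 value of 1 in either direction for 22 of the 36 genes, and for the other genes a 2-fold difference lay inside the interval.

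Genes that act with these enzymes were followed as 7 lists, of which 2 held a gene that passed. Among 14 tested genes of fatty acid synthesis and elongation, the elongase genes elo-7 (2.65 ± 0.47, adjusted p = 0.00935) and elo-8 (2.74 ± 0.53, adjusted p = 0.0153) were higher in mutant over wild type with cadmium and 0 were lower. Without cadmium elo-7 was higher by 2.73 ± 0.44 (adjusted p = 0.0348). Among 8 tested short-chain dehydrogenase genes with other names, decr-1.3, of the 2,4-dienoyl-CoA reductase family, was higher in mutant over wild type with cadmium by 3.32 ± 0.53 (adjusted p = 0.00635). The sperm marker fer-1 also passed there, at 1.98 ± 0.33 (adjusted p = 0.00708), and 10 of 10 tested sperm markers were above 0 with a median of 2.63. In wild-type libraries with cadmium, elo-7 had 5 and 8 reads, elo-8 had 6 and 12 and decr-1.3 had 3 and 7. In mutant libraries with cadmium they had 58 and 26, 71 and 49, and 69 and 34 reads, in that order. Without cadmium elo-7 had 77 and 38 reads in the mutant and 13 and 6 in the wild type. The part of sperm RNA in the values of elo-7, elo-8 and decr-1.3 was not tested.

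In the other lists 0 genes passed in any of the 5 comparisons by edgeR. These held 9 regulators of fmo-2 such as hif-1, hlh-30 and nhr-49, 8 genes of dafachronic acid synthesis and signalling, 12 genes of peroxisomal beta-oxidation and ascaroside synthesis, 7 lipid droplet genes and 14 aldehyde and alcohol dehydrogenase genes. In each list at most 2 genes reached an unadjusted p under 0.05 in a comparison. The smallest p-values were those of skn-1, a regulator of detoxification genes (-0.30 ± 0.13, mutant over wild type without cadmium), the sterol transporter gene ncr-2 (1.02 ± 0.27, same comparison), acs-7 (0.54 ± 0.21, same comparison) and acs-22 (0.36 ± 0.16, same comparison). In the last list it was sodh-2 among alcohol dehydrogenase genes (-1.75 ± 0.48 for mutant over wild type with cadmium, adjusted p = 0.0674), counted from 4 to 41 reads per library. Median log2 fold changes of these 5 lists lay between -0.35 and 0.22 in every comparison.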

How the data were processed

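RNA was extracted with Trizol from whole animals and depleted of ribosomal RNA, per the labels' protocols. Reads were processed with STAR 2.0.4b and Subread (featureCounts 1.45) on WBcel235, per the submitters' processing notes. Which annotation release, strand setting and treatment of reads matching several genes were used is not given in the sources used here. The deposited tables, 1 for each of the 8 libraries, hold raw counts per gene with CPM and RPKM, per the file headers. The deposited CPM and RPKM were recomputed from the counts as a check and not used further. Gene positions were those of the tables. Gene symbols and the protein-coding label came from a WBcel235 reference annotation, matched by gene identifier. The start and end of 3 of the 39 genes were the same in that annotation as in the tables.

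Counts were tested with edgeR 4.0.16 (R 4.3.3): TMM scaling, filterByExpr with its minimum count of 10 and total of 15, and a robust quasi-likelihood F test, 2-sided, on 4 group means over all 8 libraries, with Benjamini-Hochberg adjustment over 15818 genes. CPM and RPKM in the text use TMM-scaled library sizes. An SE is the log2 fold change divided by the root of F. The test was tested on simulated data. Alternatives were RLE scaling, DESeq2 1.42.0, limma-voom (limma 3.58.1), no low-count filter, only the libraries compared, a replicate block and leaving out each library. Total counts of 17681352 to 29586507 set the precision, and floors cover counting error only.

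The genes, lists and tests were chosen with earlier results of these data known. Values were given for the fmo and stdh genes that passed the filter, any dhs gene that passed the test, the 6 smallest p-values of each comparison, the 5 highest genes by RPKM, the dhs genes of known role, and in each other list the genes that passed and the smallest p.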

Additional observations from a re-analysis of the deposited data

How the results depend on the processing

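The count of genes that passed was 0 under every alternative in 4 of the 5 comparisons. For mutant over wild type with cadmium it was 1 of 39 with no low-count filter, where 4.15% of all genes passed. Wherever a gene of the set passed under an alternative it was fmo-4, and the cause was not tested. The median log2 fold change over the 36 genes ran, with each library left out in turn, from -0.068 to 0.044 for cadmium in the mutant, 0.11 to 0.28 for cadmium in the wild type, -0.225 to -0.075 for mutant over wild type with cadmium, 0.070 to 0.131 without cadmium, and -0.37 to -0.18 for the interaction. The interaction median was -0.336 with both RLE scaling and DESeq2. Uncalled values of single genes changed sign in 36, 10, 41 and 27 of 504 refits in the 4 comparisons between groups and in 42 of 468 for the interaction.

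With the replicate number as a block, 0 of the 36 genes passed in each comparison. The shares of all genes that passed were 0% for cadmium in the mutant and 0.215% for cadmium in the wild type. They were 3.55% for mutant over wild type with cadmium, 0.0759% without cadmium and 0.0948% for the interaction. The replicate numbers did not pair the samples in the same way in all groups. Correlations of replicate deviations over 15818 genes were 0.42 between the wild-type groups with and without cadmium and 0.04 between the mutant groups. Between the untreated groups the correlation was -0.43, the lowest of all pairs of groups. Precision is limited by 2 libraries a group and, for dhs-26, dhs-16 and fmo-2, by 9 to 111 reads per library. Other genes of the set also had few reads, such as dhs-7 with 38 to 81 and dhs-23 with 28 to 54.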

Other observations

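Replicates of a group differed by less in this gene set than over all genes. The set was also higher in level, with library medians of 3.71 to 3.97 log2 CPM against 3.11 to 3.32 over all genes tested. The part of level in the spread was not tested. The median absolute log2 ratio between the 2 libraries of a group was 0.114 over the 36 genes, against 0.147 over all genes tested, in the mutant with cadmium. It was 0.226 against 0.253 in the mutant without cadmium, 0.21 against 0.29 in the wild type with cadmium and 0.212 against 0.26 in the wild type without cadmium. In the wild type, replicate 1 was the higher library in both groups for 17 of the 36 genes, among them fmo-1, fmo-2, fmo-4 and fmo-5, and replicate 2 was for 7. In the mutant these counts were 13 and 6. The share of all genes with the same order in both groups was not computed. By single group, replicate 1 was higher for 26 of the 36 genes in the wild type with cadmium, against 47.6% of all genes. It was for 20 in the wild type without cadmium (49.5% of all genes), 28 in the mutant with cadmium (54.4%) and 16 in the mutant without it (51.6%). None of these differences was tested.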
